A study of Mus musculus with 6 samples.

Results

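The genes described here are 37 genes of glucose uptake, glycolysis, lactate handling and glycogen turnover, out of 31708 named genes on the array. Each was found by its symbol among the non-control probes, 56 of 39429 probes in all, and was represented by its probe with the highest mean log2 signal. Expression was measured on 6 single-colour arrays, 3 of myeloid cells sorted from the infarcted left ventricle, here called heart 1, 2 and 4, and 3 of the same gate from spleen, called spleen 1, 2 and 4. All donors were C57BL/6N wild-type mice, taken 3 days after acute myocardial infarction (AMI), so that both groups share strain, genotype and infarct, and no uninfarcted animal was analysed here. The cells had been sorted by FACS as CD45high and CD11bhigh and low for Ly6G, CD49b/DX5, NK-1.1, CD45R/B220 and CD90.2/Thy-1.2, which leaves a mixture of monocytes, macrophages and related cells rather than a single cell type. The samples were handled as individual spleens and ventricles, and the labels leave unstated whether equal numbers mark 1 animal.

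Glycolysis splits glucose into pyruvate. Glucose enters through transporters of the Slc2a family, is trapped by hexokinase, is committed to the pathway by phosphofructokinase and is carried through the triose steps to pyruvate, which either enters mitochondria or is reduced to lactate and exported by Slc16a carriers. Most steps have several isoenzymes encoded by different genes, and activated macrophages and neutrophils are known for relying on this route and for holding glycogen as a local store of glucose. Many of these genes are known targets of hypoxia-inducible factor (HIF), which recognises the short sequences ACGTG and GCGTG.

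A group of 8 members was higher in heart. The bases just upstream of the RefSeq start are shown for 4 of them, from the entry, control and exit of the pathway. These are also the 4 of the 8 whose windows held ACGTG. The windows are the 250 bases before the most upstream listed start, on the gene's strand, from RefSeq on GRCm38.p6. They belong to Slc2a1, which encodes the glucose transporter GLUT1 (chr4:119108495-119108744, plus strand), Pfkfb3, which encodes an enzyme that makes an activator of phosphofructokinase (chr2:11553930-11554179, minus strand), Ldha, which encodes lactate dehydrogenase A (chr7:46845554-46845803, plus strand), and Slc16a3, which encodes the lactate exporter MCT4 (chr11:120948817-120949066, plus strand). Capitals mark ACGTG and GCGTG on either strand, so that CACGT and CACGC are the same motifs read on the other strand.
Slc2a1: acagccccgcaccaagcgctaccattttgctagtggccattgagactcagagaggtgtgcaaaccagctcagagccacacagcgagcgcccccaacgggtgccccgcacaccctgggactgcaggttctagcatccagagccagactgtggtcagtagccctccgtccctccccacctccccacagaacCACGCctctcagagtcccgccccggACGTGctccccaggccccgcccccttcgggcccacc
Pfkfb3: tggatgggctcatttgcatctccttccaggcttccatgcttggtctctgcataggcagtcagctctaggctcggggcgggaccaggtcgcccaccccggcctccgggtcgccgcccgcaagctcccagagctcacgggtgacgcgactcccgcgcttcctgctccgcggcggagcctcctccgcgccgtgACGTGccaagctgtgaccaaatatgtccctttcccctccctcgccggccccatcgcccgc
Ldha: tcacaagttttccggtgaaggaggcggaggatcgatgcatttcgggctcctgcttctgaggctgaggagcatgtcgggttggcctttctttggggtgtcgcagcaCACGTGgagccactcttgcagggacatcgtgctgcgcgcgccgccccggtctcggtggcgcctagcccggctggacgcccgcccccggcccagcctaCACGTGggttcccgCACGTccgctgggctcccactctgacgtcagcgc
Slc16a3: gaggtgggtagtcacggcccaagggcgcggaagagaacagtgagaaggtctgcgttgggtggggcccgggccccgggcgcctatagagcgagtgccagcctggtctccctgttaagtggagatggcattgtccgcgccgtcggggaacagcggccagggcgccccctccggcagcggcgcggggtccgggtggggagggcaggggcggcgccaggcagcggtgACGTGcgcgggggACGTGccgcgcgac
The Slc2a1 window held ACGTG with its first base 36 bases before the start, and Pfkfb3 held it 60 bases before. Slc16a3 held it at 27 and at 14 bases before its start. Ldha held 5 matches over both strands, 4 of them from 2 copies of CACGTG, a palindrome that reads as ACGTG on each strand. Promoter windows were matched for 36 of the 37 members (not Slc2a3), and 28 of them (77.8%) held ACGTG or GCGTG, against 38.6% of 27025 promoter windows of the same length. Both motifs contain CG, and the 27025 windows were not chosen for equal GC content, which ran from 36.4% (Pfkm) to 76.4% (Slc16a1) in the members. Whether base composition bears on these shares was not tested. Among the 8 members that were higher in heart 7 windows (87.5%) held either motif, and among the 27 others with a window that were not called, 20 (74.1%). A match describes letters only.

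Levels below are log2 signals relative to the array's 75th percentile (0 is the 75th percentile), and a difference is heart minus spleen, given ± SE, the moderated standard error from limma. Genes whose p, adjusted by Benjamini-Hochberg over 17743 tested genes, was under 0.05 are said to be called. The 75th percentile of the raw signal lay between 1557 and 1989 intensity units, 52.8% to 63.6% of probes were well above background, and 0 spots were saturated. The 3 hearts were close to each other, whereas the spleens stood apart from each other: the median SD over the members was 0.14 in heart and 0.52 in spleen, and over all genes 0.15 and 0.40. Of the monocyte and macrophage markers, 12 of 12 with a probe were measured, 4 of them higher in heart and 0 lower. Their summed level was 641 to 701 in heart and 257 to 550 in spleen, in units of the array's 75th percentile. Against the Ly6G-low gate, 14 of 14 neutrophil markers were measured, 8 of them lower in heart, with summed levels of 159 to 208 in heart and 953, 1480 and 708 in spleen 1, 2 and 4. Most of the heart sums came from Chi3l3, at 7.34, 6.96 and 7.50 in heart, which was not called (−0.32 ± 0.25, adjusted p = 0.426). The median difference of the 14 markers was −4.55 (range −10.11 to −0.32), so the sums understate the gap of the others. Spleen 1 also carried the most lymphoid marker signal (197, against 18.9 in spleen 2, 8.33 in spleen 4 and 3.89 to 4.26 in heart). Cell cycle genes summed to 118, 253 and 38.1 in spleen 1, 2 and 4 and to 21.9 to 25.1 in heart. In the bulk RNA of such a sort, fewer cells of a type and less RNA per cell cannot be told apart, and the part of these markers in the results below was not tested.

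Of the 37 members, 36 were tested. The other, Pdk4, a kinase that blocks entry of pyruvate into mitochondria, did not rise well above background on any of the arrays. Higher in heart were 8 members (22.2% of those tested), Slc2a1, Slc16a3, Pfkl, Pfkp, Pfkfb3, Aldoc, Tpi1 and Ldha, beside 8.88% of all genes tested. Only Eno3 was lower (2.8%), beside 6.50% of all genes, and 15.4% of all genes were called in either direction. The 3 heart values lay above the 3 spleen values for 18 members and below them for 6, beside 24.6% and 16.5% of all genes. The median difference of the 36 was 0.55 (range −2.40 to 2.48), beside 0.11 for all genes. An unadjusted p under 0.05 in limma was found for 21 of the 36, beside 5679 of all 17743 genes tested. Each later count at an unadjusted p under 0.05 stands beside that same share of all genes. The count called higher fell to 1 without heart 1 (453 of all genes were then called), to 2 without heart 2 (484 genes) and to 2 without heart 4 (542 genes). Without spleen 4 it was 9, with 2 lower. Slc2a1 was called in each of the 3 fits that left out a heart array. With slide as a fixed block, 0 members and 51 of all genes were called, and with a separate variance for each tissue 0 members and 59 genes. Slide 1 held only spleen 1 and 2 and slide 3 only heart 2 and 4, so slide and tissue cannot be fully told apart. The fit with slide as a fixed block takes its difference from slide 2 alone, from 1 array of each tissue. Its loss of calls therefore cannot show what slide contributes. Slide 2 held heart 1 and spleen 4, where the difference between these arrays was 2.16 for Slc2a1, 2.04 for Slc16a3, 1.49 for Pfkfb3, 1.27 for Tpi1, 1.23 for Pfkl, 1.01 for Ldha, 0.73 for Aldoc, 0.59 for Pfkp and −1.68 for Eno3. The sample titles carry a date, and the labels leave unstated what it marks. It is earlier for samples 1 and 2 of both tissues and later for heart 4 and spleen 4, called the earlier and later date here. Between heart 4 and spleen 4, the arrays with the later date in their titles, the difference was 2.42 for Slc2a1, 2.07 for Slc16a3, 1.27 for Pfkl and −1.49 for Eno3. The direction of these 9 values is fixed, because the tissues did not overlap in the called members, so it says nothing of slide or date. Of all 36 tested members, 32 and 31 had the sign of the whole comparison in these pairs of arrays, which include the 24 members fixed in the same way.

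**Figure D1:**
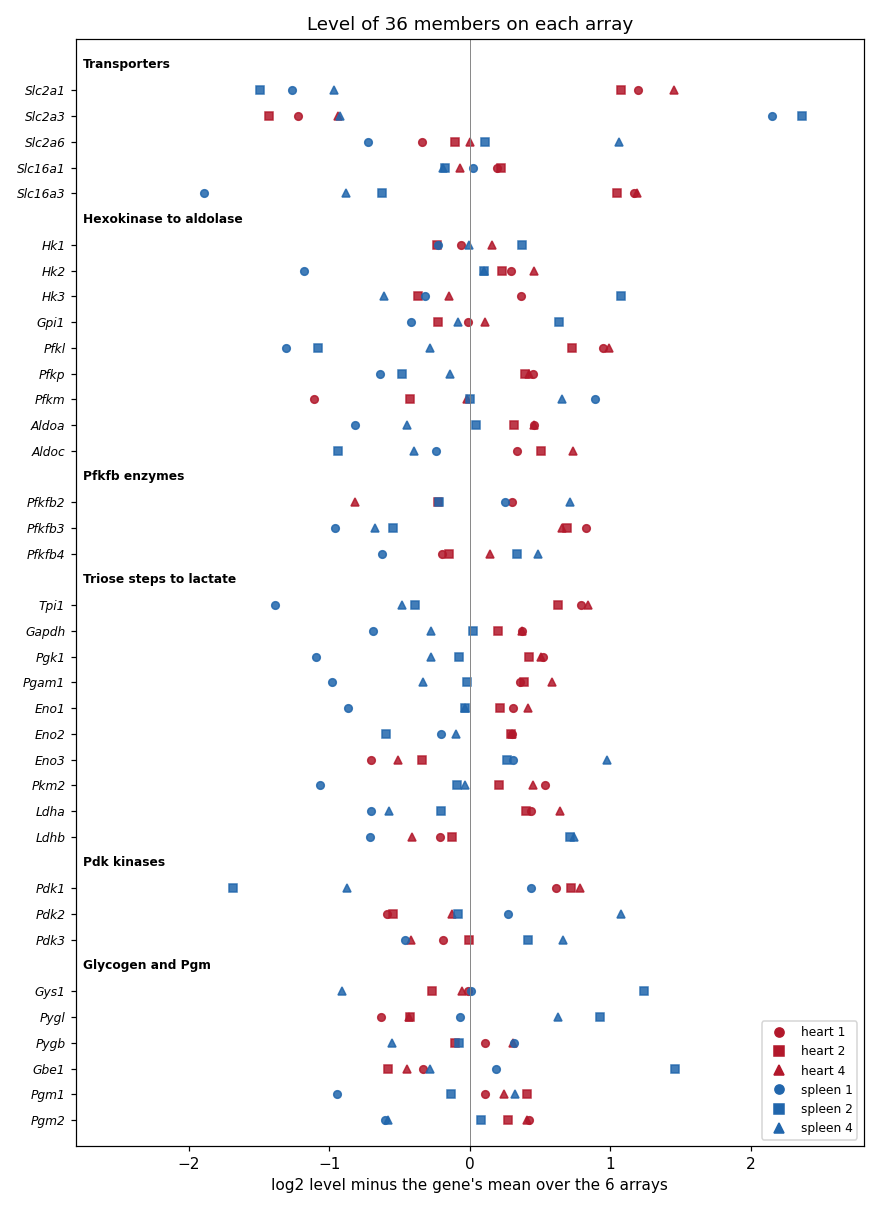
Level of each of the 36 tested members on each array (log2, minus the gene's mean over the 6 arrays, x axis), heart in red and spleen in blue, with a marker shape for each sample number. The hearts cluster tightly while the spleens spread, with spleen 1 lowest for most of the triose enzymes, and the hearts lie above every spleen for 18 members.

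**Figure D2:**
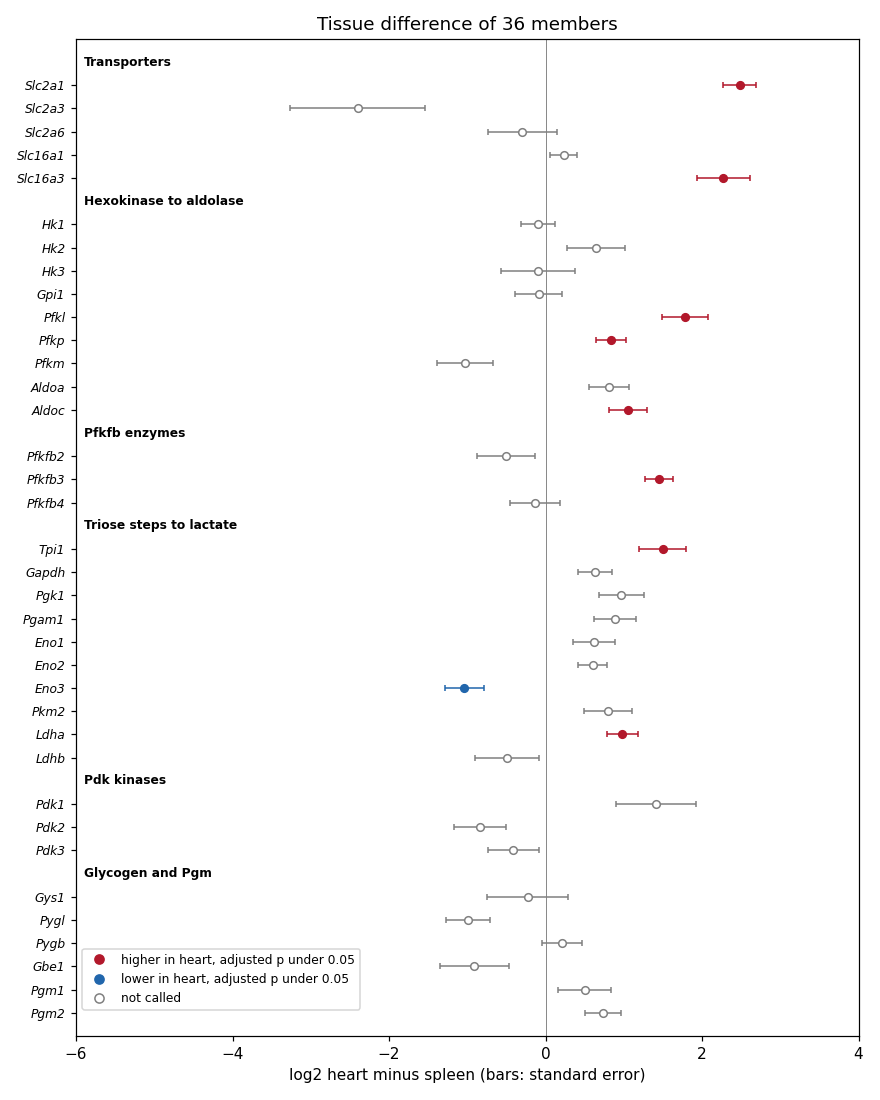
Difference in log2 level, heart minus spleen (x axis, bars are SE, 3 arrays per tissue), for the same 36 members in order of their role. Filled points have an adjusted p under 0.05, 8 higher and 1 lower in heart; transporters hold both the largest rise (Slc2a1, 2.48) and the largest negative value (Slc2a3, −2.40, not called).

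Among the 5 transporters, the main glucose importer and the lactate exporter of glycolytic cells rose in heart, 2 of 5 called higher and 0 lower. These counts, and those of the later steps, stand beside 8.88% higher and 6.50% lower of all genes tested. Slc2a1 had log2 levels of 4.68, 4.56 and 4.94 in heart 1, 2 and 4 and of 2.22, 1.99 and 2.52 in spleen 1, 2 and 4. Every heart lay more than 2 log2 units above every spleen, and the change was 2.48 ± 0.21 (SE, adjusted p = 0.00218), which is 5.58-fold. Slc16a3 had levels of 5.28, 5.16 and 5.30 in heart and of 2.22, 3.49 and 3.23 in spleen. The groups did not overlap, spleen 1 was the lowest, and the change was 2.27 ± 0.34 (adjusted p = 0.0121), which is 4.81-fold. Its adjusted p was 0.0633, 0.0594 and 0.0634 without heart 1, 2 and 4.

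The high-affinity glucose transporter gene Slc2a3 (GLUT3) was not called, with its highest levels in spleen 1 and spleen 2. Its levels were −1.22, −1.43 and −0.94 in heart and 2.15, 2.36 and −0.92 in spleen, so spleen 4 sat at the level of the hearts while spleen 1 and 2 lay more than 3 log2 units above. The difference was −2.40 ± 0.86 (adjusted p = 0.113). Without spleen 4 it was −3.46 (adjusted p = 0.00123), and between heart 1 and spleen 4 on slide 2 it was −0.30. In the summed neutrophil markers spleen 4 was likewise the lowest spleen, at 708. It was also lowest in the lymphoid (8.33), cell cycle (38.1), erythroid (10.2), dendritic cell (37.2) and immediate early (118) sums. Among the spleens it was highest in the macrophage (550), fibroblast (81.2) and cardiomyocyte (0.867) sums. Whether any of these bears on Slc2a3 was not tested. Slc2a6, which encodes the lysosomal transporter GLUT6, had levels of 2.52, 2.76 and 2.86 in heart inside the spleen range of 2.14, 2.97 and 3.92 (difference −0.30 ± 0.44, adjusted p = 0.686). Slc16a1, encoding the lactate and pyruvate carrier MCT1, overlapped between tissues at a low level (mean −2.07 in heart and −2.30 in spleen, difference 0.23 ± 0.17, adjusted p = 0.42).

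In the steps from hexokinase to aldolase, 3 of 9 members were called higher and 0 lower, and all 3 belonged to the phosphofructokinase and aldolase families. The hexokinases, which phosphorylate incoming glucose, were not called. Hk2, the inducible form, had levels of 2.73, 2.67 and 2.90 in heart and 1.26, 2.54 and 2.54 in spleen. The gap rested mainly on spleen 1, since the other spleens lay just under the hearts (difference 0.65 ± 0.37, adjusted p = 0.281). The difference was −0.10 ± 0.22 for Hk1, the constitutive form (adjusted p = 0.798), and −0.10 ± 0.47 for Hk3, the form typical of myeloid cells (adjusted p = 0.909), and both came to 0.02 under median scaling. Gpi1, which turns glucose 6-phosphate into fructose 6-phosphate, was bright in both tissues (mean 5.96 in heart and 6.05 in spleen) and overlapped between them (−0.09 ± 0.30, adjusted p = 0.865).

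The 3 phosphofructokinase genes, which encode the committing enzyme in its liver, platelet and muscle forms, included 2 that rose and 1 that was not called. Pfkl, the liver form, had levels of 0.22, 0.00 and 0.26 in heart and −2.04, −1.81 and −1.01 in spleen. All hearts lay above all spleens by more than 1 log2 unit, and the change was 1.78 ± 0.29 (adjusted p = 0.0153), 3.43-fold. Pfkp, the platelet form, had levels of 0.44, 0.38 and 0.41 in heart and −0.65, −0.49 and −0.15 in spleen, again without overlap (0.84 ± 0.19, adjusted p = 0.0332, 1.79-fold). Pfkm, the muscle form, was dim, at −3.37, −2.69 and −2.28 in heart and −1.37, −2.26 and −1.61 in spleen, with every heart under every spleen by a narrow margin (−1.03 ± 0.36, adjusted p = 0.106). Neither call held without a heart array: the adjusted p was 0.0666 to 0.0751 for Pfkl and 0.12 to 0.141 for Pfkp, and 0.0704 for Pfkp without spleen 2. With arrays scaled to their median Pfkp was also not called (adjusted p = 0.0879).

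Aldolase splits the 6-carbon sugar into a pair of trioses. Aldoc, the brain-type gene, had levels of −0.01, 0.16 and 0.39 in heart and −0.58, −1.28 and −0.74 in spleen, with no overlap (1.05 ± 0.24, adjusted p = 0.0356, 2.06-fold). Aldoa, the common form, had levels of 6.80, 6.66 and 6.80 in heart and 5.53, 6.39 and 5.90 in spleen. The hearts again lay above all spleens, but spleen 2 came close and the difference of 0.81 ± 0.25 was not called (adjusted p = 0.0789). The call of Aldoc was lost without any of the hearts (adjusted p 0.107 to 0.134) and without spleen 2 (adjusted p = 0.057), and with arrays set against the 75th percentile of probes above background on all arrays its adjusted p was 0.0891.

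The Pfkfb enzymes set the level of fructose 2,6-bisphosphate, the strongest activator of phosphofructokinase, and 1 of 3 was called higher and 0 lower. Pfkfb3, the form with the highest kinase activity, had levels of 3.09, 2.96 and 2.92 in heart and 1.31, 1.72 and 1.59 in spleen. Both groups were tight and more than 1 log2 unit apart (1.45 ± 0.18, adjusted p = 0.00676, 2.73-fold); without heart 1 the adjusted p was 0.0524. Pfkfb4 had levels of 3.09, 3.14 and 3.43 in heart and 2.66, 3.62 and 3.77 in spleen, with the hearts inside the spleen range (−0.13 ± 0.32, adjusted p = 0.82). Pfkfb2, the heart form of the enzyme, was dim and overlapped (mean −2.76 in heart and −2.26 in spleen, −0.50 ± 0.37, adjusted p = 0.402).

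From the triose steps to lactate, 8 of 10 members had every heart above every spleen, beside 24.6% of all genes tested. Of the 10, 2 were called higher (Tpi1 and Ldha) and 1 lower (Eno3), beside 8.88% and 6.50% of all genes. The median difference of the 10 was 0.71. Tpi1, which interconverts the trioses, had levels of 5.76, 5.60 and 5.81 in heart and 3.59, 4.58 and 4.49 in spleen. It stood more than 1 log2 unit higher in heart than in any spleen (1.50 ± 0.30, adjusted p = 0.0235, 2.83-fold). Ldha, which reduces pyruvate to lactate, had levels of 6.54, 6.50 and 6.74 in heart and 5.40, 5.90 and 5.53 in spleen, with no overlap (0.98 ± 0.20, adjusted p = 0.025, 1.97-fold). Without each heart in turn, the adjusted p was 0.0881 to 0.1 for Tpi1 and 0.0976 to 0.105 for Ldha.

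Gapdh encodes the dehydrogenase of the triose step and is often used as a constant reference. Its levels were 7.08, 6.91 and 7.08 in heart and 6.02, 6.73 and 6.43 in spleen, all hearts being higher (0.63 ± 0.22, adjusted p = 0.112). Pgk1, which makes ATP at the next step, had levels of 6.02, 5.92 and 6.00 in heart and 4.40, 5.42 and 5.22 in spleen (0.97 ± 0.29, adjusted p = 0.0722). Pgam1, the phosphoglycerate mutase, differed by 0.89 ± 0.27 (adjusted p = 0.0779) and Pkm2, the file's name for the pyruvate kinase gene Pkm, by 0.80 ± 0.31 (adjusted p = 0.138). These 4 genes did not pass the test, and in each spleen 1 had the lowest value. Among the spleens, spleen 1 was highest in the lymphoid (197), erythroid (206), dendritic cell (53), endothelial (2.9) and immediate early (129) sums. It was lowest in the macrophage (257) and fibroblast (42.6) sums. Whether the markers bear on the values of these genes was not tested.

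The enolase genes, whose products make phosphoenolpyruvate, included 1 that fell in heart, Eno3. Eno1, the common form, had levels of 6.10, 6.01 and 6.21 in heart and 4.93, 5.76 and 5.76 in spleen (0.62 ± 0.27, adjusted p = 0.17). Eno2, the neuronal form, was dim, at −3.18, −3.19 and −3.18 in heart and −3.69, −4.08 and −3.58 in spleen (0.60 ± 0.19, adjusted p = 0.0853). For both, the hearts lay above the spleens without passing the test. Eno3, the muscle form, was lower in heart, at 0.30, 0.66 and 0.49 against 1.31, 1.27 and 1.98 in spleen, with no overlap (−1.04 ± 0.25, adjusted p = 0.039, 2.05-fold). Without a heart array its adjusted p was 0.112 to 0.158, without spleen 2 it was 0.0529, and under median scaling 0.14. Cardiomyocyte markers were higher in heart for 5 of 10 tested genes and lower for 0, with summed levels of 1.43 to 2.45 in heart and 0.697 to 0.867 in spleen, and their part in the enolase values was not tested.

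Ldhb, the lactate dehydrogenase gene of oxidative tissue, was not called. Its levels were 1.0, 1.08 and 0.80 in heart and 0.50, 1.92 and 1.95 in spleen, with spleen 1 under the hearts and the others above (−0.49 ± 0.41, adjusted p = 0.463). Without spleen 1 the spleen spread shrank and Ldhb was called lower in heart (−0.97, adjusted p = 0.0192).

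None of the 3 tested pyruvate dehydrogenase kinases, which hold pyruvate back from mitochondria, was called by limma, although 2 of them had an unadjusted p under 0.05. Pdk1 had levels of −0.47, −0.37 and −0.30 in heart and −0.65, −2.77 and −1.96 in spleen. Spleen 1 nearly reached the hearts and the other spleens were far lower (1.41 ± 0.51, adjusted p = 0.116), and without spleen 1 Pdk1 was called higher (1.98, adjusted p = 0.0112). Pdk2 was dim and lower in every heart (−0.84 ± 0.33, adjusted p = 0.14), and Pdk3 overlapped between tissues (−0.41 ± 0.32, adjusted p = 0.433).

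Of the 6 genes of glycogen turnover, 0 were called by limma, 2 had an unadjusted p under 0.05, and the median difference was −0.01. Pygl, the glycogen phosphorylase of liver and leukocytes, had levels of 3.63, 3.84 and 3.83 in heart and 4.19, 5.19 and 4.89 in spleen. Every heart lay under every spleen (−0.99 ± 0.28, adjusted p = 0.064). It passed as lower with quantile normalization (−1.35, adjusted p = 0.0132) and without spleen 1 (−1.27, adjusted p = 0.0116). Gbe1, the branching enzyme, had levels of 0.60, 0.35 and 0.49 in heart and 1.12, 2.39 and 0.65 in spleen, and spleen 4 lay just above the hearts (−0.91 ± 0.44, adjusted p = 0.211). Gys1, the glycogen synthase, overlapped, with the spleens running from −1.55 in spleen 4 to 0.60 in spleen 2 around the hearts (−0.23 ± 0.52, adjusted p = 0.804). Pygb, the brain-type phosphorylase, also overlapped (0.21 ± 0.26, adjusted p = 0.644). Of the phosphoglucomutases, which link glycogen to glycolysis, the gene the file calls Pgm2 (Pgm1 in RefSeq, chromosome 4) was higher in every heart without passing the test (0.73 ± 0.23, adjusted p = 0.0873), and the one it calls Pgm1 (Pgm2 in RefSeq, chromosome 5) overlapped (0.50 ± 0.34, adjusted p = 0.359).

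Isoenzymes were then set against each other within each array, which removes array scaling. Of 26 pairs listed, 23 had both genes above background on all arrays. The log2 ratio did not overlap between tissues in 14 of them and overlapped in 9, beside 41.0% of all single genes tested that did not overlap in either direction. The same share over all gene pairs was not computed, and the pairs share members. Each of the 14 held a member whose own levels did not overlap, and 11 held a called member, so this count adds nothing independent of the members' own values. With 3 arrays against 3, the exact two-sided permutation test cannot go below p = 0.1, and the lowest value adjusted over the 23 pairs was 0.164, so no pair could pass. Only the difference of a ratio between tissues is read, because levels of different probes are not comparable. The ratio of Slc2a1 to Slc2a3 was 5.90, 5.99 and 5.88 in heart and 0.07, −0.37 and 3.44 in spleen, a difference of 4.88 with spleen 4 nearest the hearts. That of Slc16a3 to Slc16a1 was 7.27, 7.12 and 7.54 in heart and 4.37, 5.85 and 5.60 in spleen, a difference of 2.04. In both cases the ratio of the called member to its relative was higher in every heart than in any spleen.

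Within phosphofructokinase, the ratio of Pfkl to Pfkm differed by 2.81, from −0.68, 0.45 and 0.59 in spleen to 3.58, 2.69 and 2.53 in heart. The ratio of Pfkp to Pfkm differed by 1.87 and that of Pfkp to Pfkl by −0.94 (mean ratio to Pfkl 1.19 in spleen and 0.25 in heart). All 3 ratios separated the tissues. The ratio of Pfkfb3 to Pfkfb4 differed by 1.58 and to Pfkfb2 by 1.95, and that of Ldha to Ldhb by 1.48, from 4.90, 3.98 and 3.58 in spleen to 5.54, 5.42 and 5.93 in heart. The ratios of Eno1 and Eno2 to Eno3 differed by 1.66 and 1.64, while that of Eno1 to Eno2 overlapped between the tissues (difference 0.02, exact p = 0.9). The Pdk1 to Pdk2 ratio differed by 2.25, and the Hk2 to Hk1 ratio by 0.75, both without overlap. Hk2 to Hk3 overlapped (0.75, exact p = 0.4), as did Aldoa to Aldoc (−0.23, exact p = 0.8) and Pygl to Pygb (−1.19, exact p = 0.2).

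**Figure D3:**
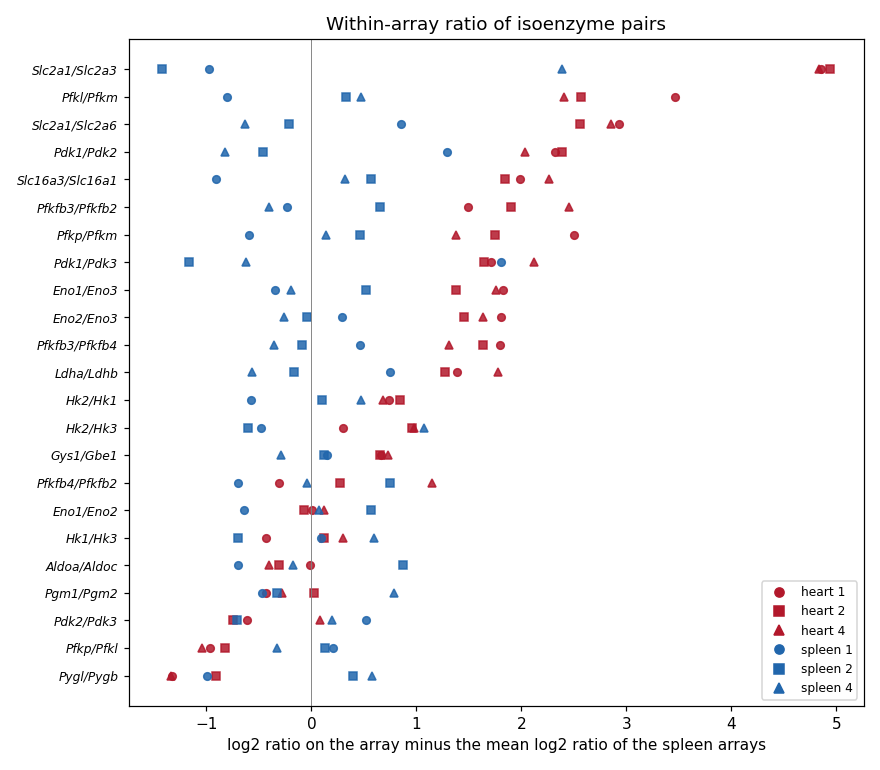
Within-array log2 ratio of each of the 23 isoenzyme pairs (x axis, minus the mean ratio of the 3 spleen arrays), heart in red and spleen in blue. In 14 pairs the hearts and spleens do not overlap, each with a member that itself does not overlap (as 41.0% of all single genes tested do not); the widest difference is for Slc2a1 over Slc2a3 (4.88), where spleen 4 lies apart from the other spleens.

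**Figure D4:**
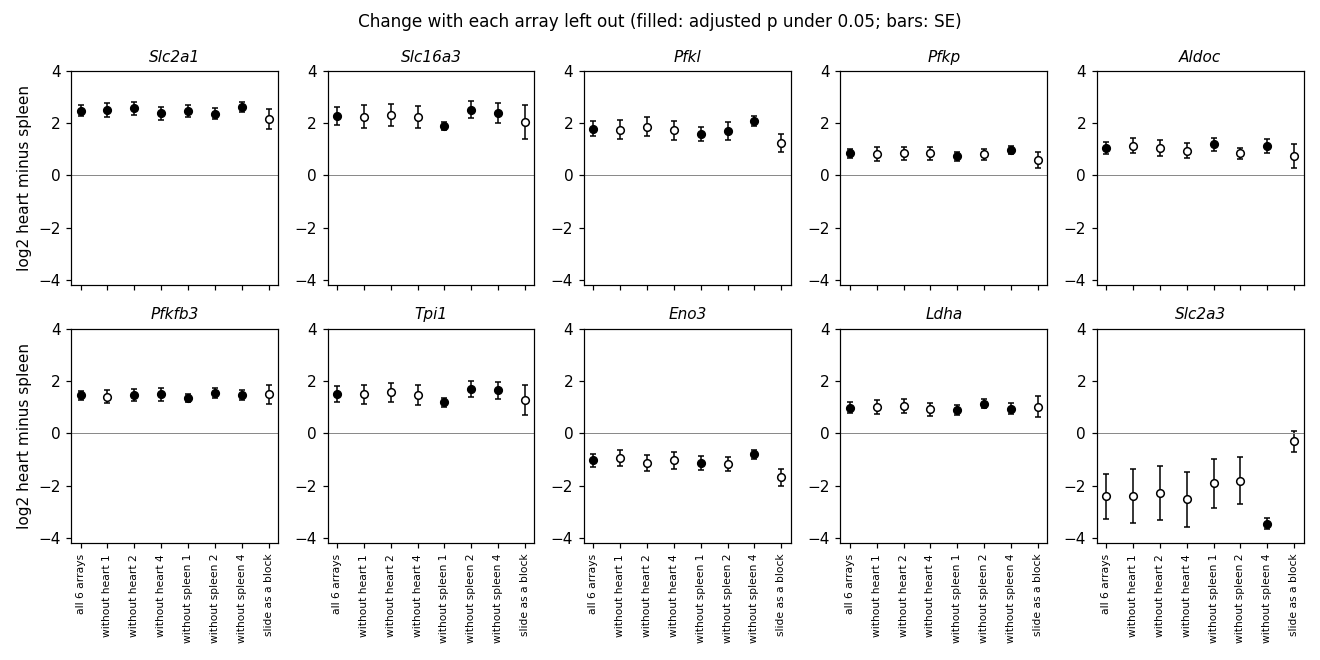
Difference in log2 level, heart minus spleen (y axis, bars are SE), for the 9 called members and Slc2a3 with all 6 arrays, with each array left out and with slide as a block. In the slide block, heart 1 and spleen 4 alone set the difference. Filled points have an adjusted p under 0.05; Slc2a1 keeps it in all fits shown but the slide block, most others lose it without a heart array, and Slc2a3 gains it only without spleen 4.

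Several members had more than 1 probe, which tests the choice of the brightest. Of the 11 members with more than 1 tested probe, 9 had all probes on the same side of 0. Ldha was called by 3 of 3 probes (0.98 to 1.20), Tpi1 by 2 of 2 (1.50 to 1.59) and Slc16a3 by 2 of 2 (2.27 to 2.31). Both Slc16a3 probes cover nearly the same bases, as do the 3 Gpi1 probes, so their agreement says little about the choice of probe. For Pfkfb3 and Pfkp 1 of 2 probes passed, with differences of 1.15 to 1.45 and of 0.84 to 1.05. Gapdh had 7 probes with differences of 0.59 to 0.80, and 0 of them passed. Probes disagreed in sign for Hk1 (−0.10 and 0.49) and Pdk2 (−0.84 and 0.04). Gapdh, Ldha, Pgk1, Aldoa, Eno1 and Pgam1 have processed pseudogenes or close relatives that can share probe signal, and the Pgk1 probe is placed on chromosome 3 in mm9 although the RefSeq gene lies on chromosome X, so these values are uncertain to that extent.

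The genes around the members were followed in lists of the same pathway. Each count below stands beside 8.88% higher and 6.50% lower of all genes tested. Of 12 other hexose, monocarboxylate and pyruvate carriers tested, 1 was higher in heart and 0 lower (median difference 0.35; 3 were higher without spleen 4). It was Slc37a2, a sugar phosphate exchanger of macrophages, at 2.06, 1.79 and 1.84 in heart and −1.60, −2.44 and −1.77 in spleen. The tissues lay more than 3 log2 units apart (3.83 ± 0.26, adjusted p = 0.00113). Among the carriers not called, the probe with the highest signal was that of Brp44l, a subunit of the mitochondrial pyruvate carrier (0.24 ± 0.23, adjusted p = 0.539).

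Among 16 other enzymes of glycolysis and gluconeogenesis, 0 were higher and 2 lower (median −0.10; 1 and 3 without spleen 4). Adpgk, the ADP-dependent glucokinase, had levels of −0.99, −0.83 and −0.73 in heart and 1.93, 3.30 and 1.28 in spleen (−3.02 ± 0.50, adjusted p = 0.015). Ldhc, the testis form of lactate dehydrogenase, was not well above background in heart and at least 3.92-fold higher in spleen (adjusted p = 0.0145). This bound sets the spleen mean against the lowest level measurable on each heart array. Of 7 genes of the pyruvate dehydrogenase complex, 0 were called by limma and 0 had an unadjusted p under 0.05, with a median difference of 0.11. The pentose phosphate pathway branches off at glucose 6-phosphate to make NADPH, and 0 of its 10 genes were called by limma, with 2 at an unadjusted p under 0.05 and a median of −0.25 (1 was lower without spleen 4).

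Among 17 other genes of glycogen turnover 3 were higher in heart and 0 lower (median −0.03; 5 were higher without spleen 4). Pgm5, a phosphoglucomutase relative, had levels of −1.42, −1.44 and −1.50 in heart and −3.71, −5.05 and −4.67 in spleen (3.02 ± 0.35, adjusted p = 0.00539). Ppp1r3b, which targets protein phosphatase 1 to glycogen, had levels of 5.97, 6.00 and 6.28 in heart and 4.08, 4.65 and 5.10 in spleen (1.47 ± 0.29, adjusted p = 0.0225). Gaa, the lysosomal glucosidase, named after its values were seen, changed by 1.05 ± 0.27 (adjusted p = 0.0466). Gyg, which primes glycogen, had the highest probe signal of the genes not called (−0.76 ± 0.32, adjusted p = 0.154).

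Of 14 hypoxia-inducible genes outside glucose metabolism, 8 were higher in heart and 0 lower (median 1.47), and 7 were higher without spleen 4. Vegfa, the endothelial growth factor, had levels of 2.87, 2.66 and 2.45 in heart and −1.72, −0.31 and −5.00 in spleen (5.01 ± 1.11, adjusted p = 0.0322). P4ha2, a collagen prolyl hydroxylase, was not well above background in spleen and was higher in heart by at least 6.14-fold, with an adjusted p of 0.00221. Hif1a, which encodes the oxygen-regulated HIF subunit and was named after its values were seen, had levels of 3.50, 3.34 and 3.11 in heart and 0.45, 0.15 and 0.92 in spleen (2.81 ± 0.25, adjusted p = 0.00234). The highest probe signal among the genes not called was that of Ddit4, a stress-induced inhibitor of mTOR (−0.52 ± 0.33, adjusted p = 0.341). Immediate early and heat shock genes, which can rise during tissue digestion and sorting, were higher in heart for 9 of 15 and lower for 0. Their median difference was 3.00 (range 0.34 to 6.49), with summed levels of 350 to 419 in heart and 118 to 129 in spleen. The highest probe signal was that of Hspa8, at 6.45, 6.59 and 6.66 in heart and 5.80, 6.14 and 6.21 in spleen. It was not called (0.52 ± 0.19, adjusted p = 0.115), so the sums understate the gap of the called genes. Fibroblast markers were higher for 7 of 9 tested and lower for 0, with a median difference of 4.27. Their sums were 93.4 to 134 in heart and 42.6 to 81.2 in spleen. Most of each sum came from Fn1, which was not called (0.90 ± 0.38, adjusted p = 0.167). Its levels were 6.37, 6.49 and 6.97 in heart and 4.94, 5.86 and 6.34 in spleen, so the sums do not show the 7 called genes. Endothelial markers were higher for 3 of 7 and lower for 0 (3.93 to 6.22 and 2.49 to 2.90). Dendritic cell and erythroid markers had 0 called of 6 and of 7 by limma, with 3 and 2 at an unadjusted p under 0.05. Their sums were 44.5 to 54.8 and 9.38 to 44.6 in heart, and 37.2 to 53.0 and 10.2 to 206 in spleen. The part of these lists in the members' values was not tested.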

How the data were processed

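The submitters' processing notes name Agilent Feature Extraction 10.7.3.1, with which the authors read the arrays. Per the file headers, the deposited processed signal is an intensity on a linear scale, corrected for background and not scaled between arrays. Per the labels' protocols, 10 ng of total RNA was amplified in a single round and dye-labelled. The number of arrays limits the precision. The deposited value table holds log2 values with column medians of 0 and served as an alternative only. Its differences between arrays followed quantile-normalized signals (r 0.9917 to 0.9993 over 15 pairs of arrays, across genes). Its direction and scale were settled by that comparison and the centring of its rows is unknown.

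Control spots and outlier spots were left out, spots of a probe were averaged and log2 signals were set against the 75th percentile of the array. A gene was its brightest probe, tested where the scanner program put it well above background in all 3 samples of heart or of spleen. Heart and spleen were compared by limma 3.58.1 in R 4.3.3 (version 1.17.8 of data.table for file handling; two-sided; Benjamini-Hochberg over 17743 genes), which was tested on simulated data, and by exact permutation for ratios. P-values measure the spread between these 3 samples per tissue. Members were matched to RefSeq by accession (37 of 37). Promoters were scanned and figures drawn in Python 3.11.15 (pandas 2.3.3, matplotlib 3.10.9). All members were named. From each other list at most the 2 called genes with the largest change and the brightest uncalled gene were named, beside Gaa and Hif1a. Several of these lists, most marker lists among them, were given by counts, medians or sums only. The members and lists were chosen with earlier results of these data known. Probe coordinates are in mm9. Background correction, scaling, filters, probe choice, blocks for replicate number, date and slide, variance models and leaving out each array were tried as alternatives; the arrays of the earlier date alone, and the list counts without spleen 4, were added after the data were seen.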

Additional observations from a re-analysis of the deposited data

How the results depend on the processing

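Of 756 comparisons of a member's change with an alternative, 660 kept direction and side of the threshold, 62 kept direction but lost the call, 14 gained a call and 20 changed sign. The 8 members higher in heart became 4 without the filter on dim probes, 0 with slide as a fixed block, 0 with a separate variance per tissue, 3 with the arrays of the earlier date and 1 to 10 with each array left out. The 1 lower member became 2 with normexp, with quantile normalization, with the 75th percentile over probes above background on all arrays and with the deposited value table, became 0 with median scaling, without the filter, with slide as a fixed block and with a separate variance, and ranged from 0 to 3 with each array left out. The 2728 genes called became 1517 without the filter, 51 with slide as a fixed block, 59 with a separate variance, 1717 with the arrays of the earlier date and 453 to 4201 with each array left out. Other scalings moved the median change of all genes to 0.22 (median) or −0.09 (75th percentile over probes above background on all arrays), and the share of called genes that were higher from 57.7% to 43.2% under the latter. With slide as a fixed block the difference came from heart 1 and spleen 4 alone, because the other slides each held 1 tissue. The cause of these shifts was not tested.

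The replicate number as a block left 4 members higher (Slc2a1, Pfkl, Pfkfb3 and Slc16a3), 0 lower and 1552 genes called. Same-numbered samples did not deviate together (correlations of −0.08, 0.07 and 0.00), so the numbers were not taken as a pairing.

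The sign changes concerned members that were not called. With median scaling Hk1, Hk3 and Gpi1 each came to 0.02. With slide as a fixed block Hk3 was 0.97, Gpi1 0.07, Gys1 0.89 and Pgm1 −0.22. With the mean over probes Hk1 was 0.20. With the arrays of the earlier date Slc2a6 was 0.08, Pfkfb2 0.02 and Pygb −0.12. With each array left out, the change ran from −0.73 to 0.16 for Slc2a6, −0.24 to 0.06 for Hk1, −0.43 to 0.41 for Hk3, −0.32 to 0.20 for Gpi1, −0.48 to 0.08 for Pfkfb4, −0.74 to 0.34 for Gys1 and −0.02 to 0.41 for Pygb. Of the ratios, Hk1 to Hk3 differed by 0.00 with normexp and 0.30 with probe means, and Pdk2 to Pdk3 by 0.03 and 0.01. With each array left out, the difference ran from −0.35 to 0.30 for Hk1 to Hk3, −0.02 to 0.74 for Pfkfb4 to Pfkfb2, −0.58 to 0.20 for Aldoa to Aldoc, −0.30 to 0.31 for Eno1 to Eno2 and −0.46 to 0.17 for Pgm1 to Pgm2.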
